A study of Mus musculus with 8 samples.

Results

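The Ms4a genes encode small membrane proteins with several membrane-spanning segments, and 7 of them were followed here in mouse microglia, the macrophages that live within brain tissue. They are Ms4a4a, Ms4a4b, Ms4a4c, Ms4a6b, Ms4a6c, Ms4a6d and Ms4a7. A gene was represented by its probe set with the highest mean over all 8 arrays, among probe sets annotated to that gene alone. Each of the 7 has 1 such probe set, out of 28874 on the array, and they are 7 of the 19938 genes tested. The 8 samples came from Swiss Webster mice at 17 weeks of age, all labelled female: 4 knockout samples without multifunctional protein-2 (MFP2, the peroxisomal beta-oxidation enzyme encoded by Hsd17b4) and 4 wild type controls. No group received a further treatment per the labels. The labels do not state which cells or exons the knockout affects nor that every replicate is its own animal. The p-values therefore reflect the spread among the 8 samples only, part of which may be technical. The cells were sorted from dissociated whole brains by bright CD11b and moderate CD45 staining, a gate that other myeloid cells of the brain and its borders could share. The comparison asks what loss of MFP2 does to gene expression in these cells.

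Ms4a proteins are found mostly on cells of the blood and immune system and act alongside other receptors in the membrane. The family includes CD20 of B cells, encoded by Ms4a1, and the beta chain of the high-affinity IgE receptor of mast cells, encoded by Ms4a2. Ms4a4a and the Ms4a6 genes are expressed by macrophages, and human MS4A4A and MS4A6A lie in a region linked to Alzheimer's disease risk and to the amount of soluble TREM2, a lipid-sensing microglial receptor. Ms4a4b is known from T cells, Ms4a4c from monocytes and interferon responses, and Ms4a7 marks macrophages at the borders of the brain more than resting microglia.

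Values are log2 expression after RMA (robust multi-array average, which corrects background and brings the arrays to a common scale), with array medians between 6.03 and 6.15. Hsd17b4 was at 7.82 to 9.09 in controls and at 4.76 to 5.21 in 3 knockout arrays, with knockout 2 at 7.20. Control 1 did not match its female label, with the X-linked Xist at 6.80 against 10.82 or more elsewhere among controls and the Y-linked Eif2s3y at 8.14 against 2.99 or less. The summed level of 8 neutrophil genes ran from 11.52 in control 1 to 14.26 in control 3, and from 12.79 to 13.62 in knockouts. The 10 measured microglial marker genes were above the median of all genes' means (6.24) in every array. Examples are Tmem119 at 11.69 or more and Cx3cr1 at 12.22 or more. The neutrophil gene S100a8 was about as high in some arrays, at 12.59 in control 3 and 11.20 to 12.12 in knockouts, but at 9.86 in control 1. The part of neutrophils in these samples was not tested. A gene is called, and is said to have risen or fallen, where limma's adjusted p (Benjamini-Hochberg over all 19938 genes) was under 0.05. In bulk RNA of sorted cells, fewer cells of a type and less RNA per cell cannot be told apart.

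The Ms4a genes lie side by side on mouse chromosome 19, and 2 pairs of them resemble each other in the sequence before their start sites. Promoter windows from RefSeq (build GRCm38.p6) were found for 6 of the 7 genes, all but Ms4a6d, with a second start site for Ms4a7. The pair Ms4a6b and Ms4a6c and the pair Ms4a4c and Ms4a4b are shown, because the start regions within each pair are alike and 1 gene of each pair was called while the other was not. Of these genes, Ms4a4b was dim, as given below. Each line gives the 250 bases before the annotated start, 5′ to 3′ on the gene's strand, which is the plus strand for all 4 genes. The positions are chr19:11518309-11518558 for Ms4a6b, chr19:11469118-11469367 for Ms4a6c, chr19:11407411-11407660 for Ms4a4c and chr19:11443308-11443557 for Ms4a4b. Capitals mark runs of at least 12 bases that also occur, unbroken, in the partner of the pair. The last capitals of Ms4a4b are 2 such runs side by side, of 20 and 12 bases, which 1 further base separates in Ms4a4c.
Ms4a6b: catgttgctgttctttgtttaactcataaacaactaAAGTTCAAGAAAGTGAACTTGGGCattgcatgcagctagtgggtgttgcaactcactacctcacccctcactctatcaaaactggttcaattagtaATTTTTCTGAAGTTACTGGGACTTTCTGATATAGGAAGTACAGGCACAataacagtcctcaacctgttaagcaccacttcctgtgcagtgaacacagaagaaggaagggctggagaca
Ms4a6c: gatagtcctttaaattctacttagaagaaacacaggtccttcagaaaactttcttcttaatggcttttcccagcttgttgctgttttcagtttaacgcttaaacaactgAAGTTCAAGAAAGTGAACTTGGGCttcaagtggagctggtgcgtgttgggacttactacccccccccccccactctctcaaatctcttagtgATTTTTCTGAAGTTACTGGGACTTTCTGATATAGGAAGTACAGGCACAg
Ms4a4c: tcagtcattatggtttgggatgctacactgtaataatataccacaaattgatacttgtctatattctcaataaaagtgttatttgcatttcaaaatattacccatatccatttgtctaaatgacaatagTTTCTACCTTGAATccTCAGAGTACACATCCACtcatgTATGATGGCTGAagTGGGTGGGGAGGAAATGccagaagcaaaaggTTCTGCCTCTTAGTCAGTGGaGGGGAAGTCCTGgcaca
Ms4a4b: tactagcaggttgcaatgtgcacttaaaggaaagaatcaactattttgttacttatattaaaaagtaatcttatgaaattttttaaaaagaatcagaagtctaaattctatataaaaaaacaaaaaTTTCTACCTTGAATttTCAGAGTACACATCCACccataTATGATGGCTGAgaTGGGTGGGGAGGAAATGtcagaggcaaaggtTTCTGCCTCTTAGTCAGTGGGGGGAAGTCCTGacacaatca

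The best local alignment of the Ms4a6b and Ms4a6c windows covered 182 columns with 152 identical bases (83.5%), and their longest common run was 48 bases. For Ms4a4b and Ms4a4c it covered 128 columns with 114 identical bases (89.1%) and a longest run of 20 bases. In none of the other pairs of windows did the longest run pass 9 bases. The letters AGGAAGT, an ETS-type motif of the kind bound by the myeloid factor PU.1, were searched on both strands. Ms4a6b held it 86 bases before its start and, on the other strand, 43 bases before it. Ms4a6c held it 17 bases before its start, inside the 48-base run that it shares with Ms4a6b. Of all 32851 RefSeq windows of this length, 7.69% held AGGAAGT. An interferon-response motif (GAAA, 2 bases of any kind, then GAAA; 2.98% of all windows) and the STAT-type letters TTCNNNGAA (7.02%) were in none of the 7 windows of these genes. TGANTCA, the AP-1 motif (6.75% of all windows), was in the second Ms4a7 window, and TATAAA (12.4%) was 140 bases before the start of Ms4a4b. A match describes these letters only, and no binding was measured here.

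Of the 7 genes, Ms4a7 and Ms4a4c rose in knockout microglia, Ms4a6b fell, and Ms4a4a, Ms4a4b, Ms4a6c and Ms4a6d were not called. Over all genes tested 9.55% were called in either direction, 5.38% higher and 4.17% lower. The direction of the fitted change was positive for 6 of the 7, with a median log2 change of 0.40 against -0.02 for all genes. The members were chosen with earlier results of these data known, so these counts are no test of the family.

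**Figure D1:**
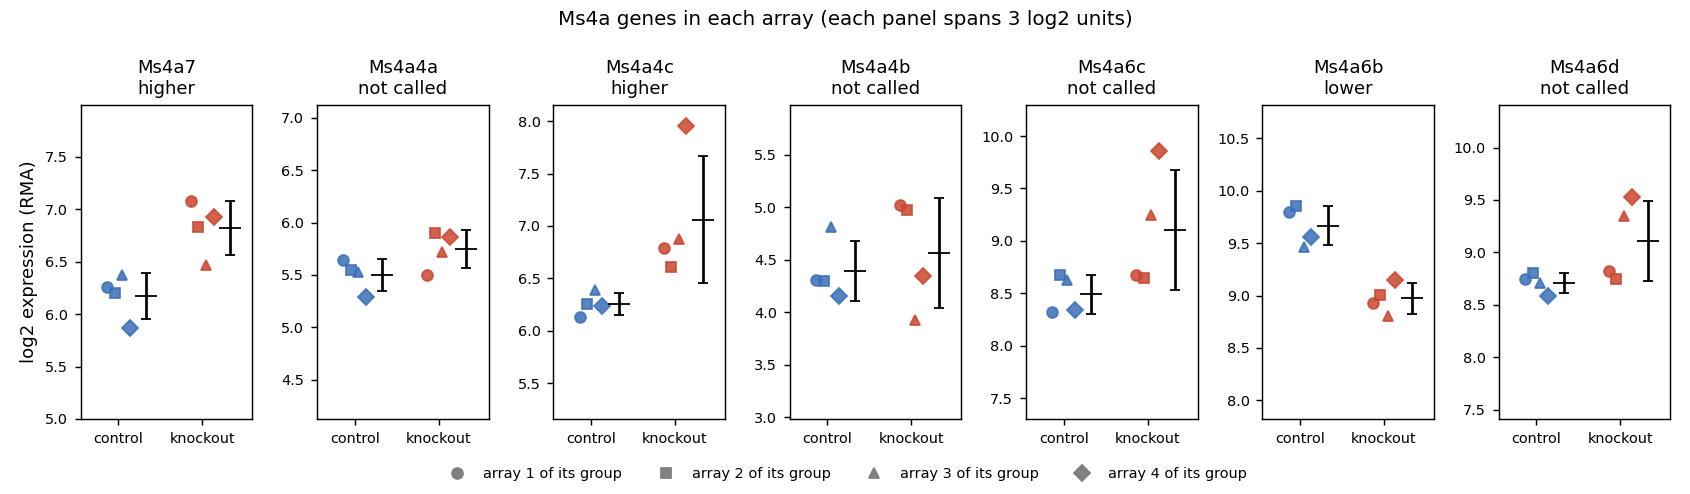
Log2 expression of the 7 Ms4a genes (vertical axis, a different range in each panel) in 4 control arrays (blue) and 4 knockout arrays (red); symbols give the array number and black bars the mean ± SD of a group. The knockout arrays lie above all controls for Ms4a7 and Ms4a4c and below them for Ms4a6b, and the groups overlap in the other panels.

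Ms4a6b, a macrophage member of the Ms4a6 branch, fell, with every knockout array below every control array. The 4 control arrays, in the order of their numbers, gave log2 values of 9.79, 9.86, 9.46 and 9.56, and the 4 knockout arrays gave 8.93, 9.01, 8.80 and 9.15. All values below keep this order. The highest knockout value (9.15) was below the lowest control value (9.46). The mean went from 9.67 ± 0.19 (SD, n = 4) to 8.97 ± 0.14, a log2 change of -0.70 ± 0.11 (SE), or 1.62-fold (limma adjusted p = 0.00211). Groups did not overlap in this direction for 6.92% of all genes. The fall was called under all 18 alternative settings tried, with changes from -0.77 to -0.63. Some of these settings leave the fitted change as it is and alter only its error, adjusted p or threshold. Without control 1, the array that did not match its label, it was -0.65 (adjusted p = 0.00944). Without knockout 2, the knockout array with the highest Hsd17b4, it was -0.71 (adjusted p = 0.00477).

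Ms4a7 rose. It stood at 6.25, 6.20, 6.37 and 5.86 in the control arrays and at 7.08, 6.83, 6.47 and 6.92 in the knockout arrays. The closest values were those of knockout 3 (6.47) and control 3 (6.37), and the groups did not overlap. The log2 change was 0.65 ± 0.14 (SE), or 1.57-fold (limma adjusted p = 0.0110). Knockout arrays lay above all controls for 7.09% of all genes. Among the 18 settings tried the call was lost at an adjusted p threshold of 0.01 only, and without control 1 the change was 0.68 (adjusted p = 0.0243). Without knockout 2, the knockout array with the highest Hsd17b4, it was 0.65 (adjusted p = 0.0230).

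Ms4a4c rose as well, most of all in 1 array. Control values were 6.14, 6.26, 6.39 and 6.23, and knockout values were 6.79, 6.61, 6.88 and 7.96. All 4 knockout arrays were above all 4 control arrays, and knockout 4 was 1.70 above the control mean while the other knockout arrays were 0.36 to 0.62 above it. The means were 6.25 ± 0.10 (SD) and 7.06 ± 0.61, a log2 change of 0.80 ± 0.23 (SE), or 1.75-fold (limma adjusted p = 0.0458). Without knockout 4 the change was 0.51 (adjusted p = 0.0117). Without knockout 2, the knockout array with the highest Hsd17b4, it was 0.95 (adjusted p = 0.0218). The call was lost without control 1 (adjusted p = 0.112), control 2 (0.111), control 3 (0.0687), control 4 (0.0986) or knockout 3 (0.0708), with an intensity-dependent robust prior (0.0909), and at a threshold of 0.01.

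The other Ms4a6 genes had positive changes that were not called. Ms4a6c stood at 8.32, 8.68, 8.63 and 8.34 in controls and at 8.68, 8.65, 9.24 and 9.86 in knockouts. Knockouts 1 and 2 lay within the control range or at its upper edge, and knockouts 3 and 4 lay above it. Its log2 change was 0.61 (95% interval 0.13 to 1.10 before adjustment, limma adjusted p = 0.122). Ms4a6d had the same arrangement, with controls at 8.74, 8.80, 8.70 and 8.58 and knockouts at 8.82, 8.74, 9.35 and 9.52. Its change was 0.40 (95% interval 0.06 to 0.75, adjusted p = 0.156). Neither was called under any of the 18 settings, where the lowest adjusted p was 0.0517 for Ms4a6c and 0.0511 for Ms4a6d, both without knockout 2. That array had the highest Hsd17b4 among knockouts. Without knockout 4 the changes were smaller, 0.36 (adjusted p = 0.222) for Ms4a6c and 0.26 (0.351) for Ms4a6d.

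The change of Ms4a6b was opposite in sign to those of Ms4a6c and Ms4a6d in the same arrays. Taking Ms4a6c minus Ms4a6b in each array, relative to the control mean of that difference, the controls were at -0.30, -0.0025, 0.34 and -0.04 and the knockouts at 0.92, 0.82, 1.62 and 1.88. The difference between the log2 changes of the pair was 1.31, and the groups did not overlap. For Ms4a6d minus Ms4a6b it was 1.10, again with no overlap (knockouts at 0.70 or more, controls at 0.20 or less). For Ms4a4c minus Ms4a4b the groups overlapped, with knockouts at -0.09, -0.22, 1.09 and 1.75 and controls from -0.28 to 0.22. A difference taken within an array is not altered by a shift of the whole array. The differences from Ms4a6b separated the groups, while that of Ms4a4c and the dim Ms4a4b did not. In knockouts 1 and 2 most of the separation came from Ms4a6b, at -0.73 and -0.66 from its control mean. There Ms4a6c was at 0.19 and 0.15 and Ms4a6d at 0.12 and 0.04. Ms4a6b by itself also separated the groups, and the share of all gene pairs without overlap was not computed. No p-value is given here, since the pairs were chosen after the values were seen. The probes' sequences were not used here, so signal shared between such similar genes was not tested.

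Ms4a4a, the mouse counterpart of MS4A4A, was not called. Its values were 5.65, 5.55, 5.53 and 5.29 in controls and 5.50, 5.90, 5.72 and 5.86 in knockouts. Knockout 1 lay among the controls and the other knockout arrays above them. The log2 change was 0.24 (95% interval -0.0016 to 0.49, limma adjusted p = 0.241).

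Ms4a4b varied between arrays of both groups. It stood at 4.31, 4.30, 4.81 and 4.15 in controls and at 5.02, 4.97, 3.92 and 4.35 in knockouts, and its log2 change was 0.17 (95% interval -0.31 to 0.66, adjusted p = 0.750). The change moved by over 1.5 times when single arrays were left out. It was 0.021 without knockout 1, 0.038 without knockout 2 and 0.094 without control 4, and leaving out control 3 gave 0.31 and leaving out knockout 3 gave 0.39. The high arrays were control 3, knockout 1 and knockout 2. Of the 10 measured T and NK cell genes, 2 had these same arrays as their 3 highest, Cd2, which encodes an adhesion receptor, and the cytotoxic granule gene Nkg7. A further 5 genes shared 2 of these arrays with Ms4a4b among their 3 highest, and 3 shared 1 (Skap1, Klrb1c and Gzma). The share of all genes with such overlap was not computed, so these counts do not measure likeness to T and NK cell genes. Nkg7 was at 6.67, 6.36, 7.14 and 6.07 in controls and 7.08, 6.81, 6.37 and 6.69 in knockouts. The killer-cell receptor gene Klrb1c was instead highest in knockout 4 (4.70), and Gzma, a granule protease, in control 2 (5.13). The summed level of the 10 genes was 9.26, 9.16, 9.72 and 8.99 in controls and 9.58, 10.00, 9.21 and 9.73 in knockouts, so that knockout 4 was above knockout 1 and control 3. The part of such cells in the Ms4a4b values was not tested.

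The spread among knockout arrays differed between the genes. The SD over knockouts was 5.85 times that over controls for Ms4a4c, 4.07 times for Ms4a6d and 3.06 times for Ms4a6c. It was 1.83 times for Ms4a4b, 0.78 times for Ms4a6b, 1.19 times for Ms4a7 and 1.20 times for Ms4a4a. The median over all genes was 0.98 times. A ratio above that of Ms4a4c was found for 0.988% of all genes, and this share was not computed for the other members. Knockout 4 was the highest array for Ms4a4c, Ms4a6c and Ms4a6d and was the knockout array with the least reduced Ms4a6b.

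**Figure D2:**
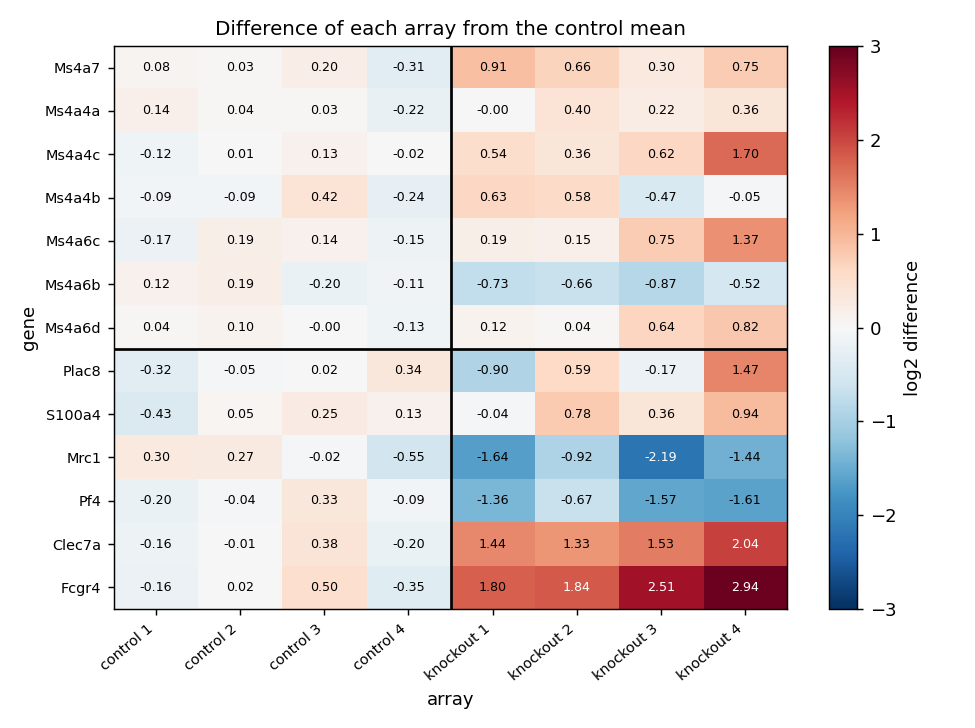
Log2 difference of each array (columns) from the control mean for the 7 Ms4a genes (above the line) and for Plac8, S100a4, Mrc1, Pf4, Clec7a and Fcgr4 (below it); red is above and blue below the control mean. Knockout 4 stands at 1.70 for Ms4a4c, 1.37 for Ms4a6c and 0.82 for Ms4a6d, and also at 1.47 for Plac8, while Ms4a6b is below the control mean in all 4 knockout arrays. The genes below the line are a selection and do not stand for their lists. Genes of the same lists that went the other way are not shown. They include Ccr2 (6.74 in knockout 4, 7.06 to 7.20 in controls), Colec12, Syk, Inpp5d and Fcgr1.

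Markers of other cells were read beside these values. Of 7 measured monocyte genes 1 fell and 0 rose: Ccr2, the chemokine receptor that brings monocytes out of the marrow, by 0.59 ± 0.11 (SE, limma adjusted p = 0.00552). The monocyte gene Plac8 stood at 8.95 in knockout 4, 8.07 in knockout 2, 7.31 in knockout 3 and 6.58 in knockout 1, against 7.17 to 7.82 in controls. The calcium-binding protein gene S100a4 was at 8.75 in knockout 4 and 8.58 in knockout 2, against 7.38 to 8.06 in controls. The summed level of the monocyte genes was 9.40 to 10.04 in controls and 9.47 to 10.50 in knockouts, with its top value in knockout 4, the array that was highest for Ms4a4c, Ms4a6c and Ms4a6d. Knockout 2, the second highest, was the lowest knockout array for all 3. No marker was at 0, since RMA values have no zero, and Vcan at 4.27 to 4.65 stayed under the lower quartile of all genes' means (4.93). The part of monocytes in these results was not tested.

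Ms4a7 rose while several other genes of border macrophages fell. Of 11 such genes, 4 were lower and 1 was higher, with a median log2 change of -0.57. The mannose receptor gene Mrc1 fell by 1.55 ± 0.24 (SE), the platelet factor gene Pf4 by 1.30 ± 0.19 and the hyaluronan receptor gene Lyve1 by 0.86, and the scavenger receptor gene Colec12 rose by 0.61 ± 0.15. F13a1, a coagulation factor subunit, also fell, by 0.59 (limma adjusted p = 0.0270). The summed level of the list was 9.99 to 10.55 in controls and 9.86 to 10.13 in knockouts. Mrc1 was lower in every knockout array (5.91 to 7.18) than in every control array (7.55 to 8.41), and so was Pf4 (5.22 to 6.16 against 6.63 to 7.16). Of the 11 genes, 8 had a negative change and 3 a positive one, as Ms4a7 had: Colec12, the endocytic adaptor gene Dab2 (0.24, adjusted p = 0.321) and the folate receptor gene Folr2 (0.03, 0.922). Colec12 and Lyve1 were lost in several of the settings that leave out 1 array, with 2 to 6 lower genes and 0 to 1 higher gene on the list.

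The other lists gave few calls. The 10 T and NK cell genes, 6 B-cell genes, 7 mast cell genes and 8 neutrophil genes had 0 calls by limma. At an unadjusted p under 0.05, 3 T and NK cell genes and 0 genes of the other lists passed. Cd3g, a T-cell receptor subunit, was at 5.68 to 7.09 in controls and 6.56 to 8.07 in knockouts (log2 change 1.02, adjusted p = 0.0859), and Gzma had a change of -0.41 (0.0661). Cd3g was called higher without control 3 (1.29, adjusted p = 0.0274) or knockout 3, and Gzma lower without control 1 (-0.48, 0.0482). The B-cell receptor genes Cd79b (0.35) and Cd79a (0.28), the mast cell proteases Cma1 (-0.11) and Tpsb2 (-0.05) and the neutrophil genes Ltf (-0.65) and Retnlg (0.79) were not called. Without control 1, Ltf was lower (-1.23, adjusted p = 0.0104) and Retnlg was at 0.20, and without control 3 they were at -0.32 and 1.38, not called. Cd79b was called higher without knockout 1 (0.54, adjusted p = 0.0323), and Cd79a was at 0.09 without knockout 4. In contrast, 9 of 10 microglial genes fell and 0 rose, led by the ADP receptor P2ry13 (-0.82 ± 0.10, adjusted p = 0.000441), Tmem119 (-0.66), Gpr34, a lipid receptor (-0.69), and the lectin Siglech (-0.87). Ms4a6b fell by 0.70 on the same scale, within the range of those genes (-0.87 to -0.40).

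The remaining genes of the family were not called. Of 12 other measured Ms4a genes and the related Tmem176a and Tmem176b, 0 of 14 were called by limma, and 0 reached an unadjusted p under 0.05. Their median log2 change was -0.03, and their changes ran from -0.18 for Ms4a3, a gene of granulocyte and monocyte precursors, to 0.19 for Tmem176a. Ms4a1 was at 3.96 to 4.58 in controls and 3.95 to 4.63 in knockouts, and Ms4a2 at 3.97 to 4.10 and 3.91 to 4.12, all under the lower quartile of all genes' means (4.93). Ms4a10 (-0.06), Ms4a12 (-0.05), Ms4a13 (0.04), Ms4a15 (0.11), Ms4a19 (-0.04), Ms4a20 (-0.01), Ms4a4d (-0.08), Ms4a5 (0.13) and Ms4a8a (-0.03) were not called, with the log2 change in brackets. Ms4a12, Ms4a13, Ms4a19, Ms4a20, Ms4a4d and Ms4a5 also had means under that quartile, from 2.79 for Ms4a19 to 4.54 for Ms4a12. Of all 1905 called genes, 1686 had a mean at or above the median of 6.24. The lack of a call in such dim genes therefore says little about change. Tmem176b, a cation channel-like protein of myeloid cells, was at 10.31 to 10.48 in controls and 10.03 to 10.48 in knockouts (-0.16, adjusted p = 0.453). Ms4a14 and Ms4a18 are not analysed here.

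**Figure D3:**
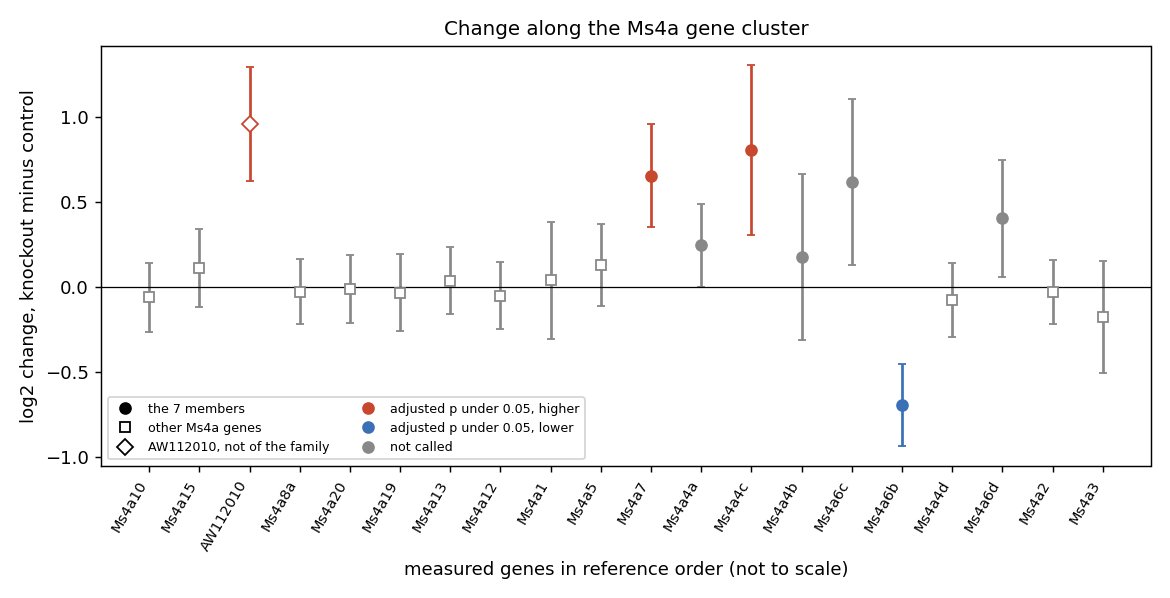
Log2 change, knockout minus control, with its 95% interval (bars) for 20 measured genes in their order along the Ms4a cluster (horizontal axis, not to scale); filled circles are the 7 members, squares other Ms4a genes and the diamond AW112010. The called changes are those of AW112010 (0.95), Ms4a7 (0.65), Ms4a4c (0.80) and Ms4a6b (-0.70).

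Along the chromosome the 7 genes form 1 stretch, in the order Ms4a7, Ms4a4a, Ms4a4c, Ms4a4b, Ms4a6c, Ms4a6b and Ms4a6d, broken by Ms4a4d. Ms4a6b, which fell, lies next to Ms4a6c, whose change was positive. The reference block from Ms4a10 to Ms4a3 holds 20 measured genes, of which 1 is no family member. It is AW112010, an RNA known to be induced in inflamed myeloid cells, and it was named after its value was seen. AW112010 rose from 6.94 ± 0.24 (SD) to 7.90 ± 0.30 (log2 change 0.95 ± 0.15, SE, limma adjusted p = 0.00215). Of the 20 measured genes flanking the block, 10 on each side, 3 rose and 0 fell: A430093F15Rik by 0.62 (adjusted p = 0.00299), the lymphocyte surface gene Cd5 by 0.53 (0.0276) and Ccdc86 by 0.57 (0.0373). All 3 lie on the side of Ms4a10. On the other side Oosp1, Oosp2, Oosp3, Olfr1418, Olfr1419 and Olfr1420 had means of 3.49 to 4.83. These are under the lower quartile of all genes' means (4.93). Stx3, also on that side, had every knockout array above every control array but was not called (0.35, adjusted p = 0.0573). Over all genes tested 5.38% were called higher and 4.17% lower. The median log2 change of the 20 flanking genes was 0.01. Between 1 and 3 of them were called higher when arrays were left out in turn, 1 of them without control 2 or without knockout 3. After other scalings of the arrays, quantile normalization or cyclic loess, 4 of them were called higher.

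Genes of TREM2, dectin-1 and Fc receptor signalling, with which Ms4a proteins are linked, moved both ways. Of 15 measured, 3 rose and 3 fell, with a median log2 change of -0.06. The dectin-1 gene Clec7a, a beta-glucan receptor, went from 6.34 to 6.92 in controls to 7.87 to 8.58 in knockouts (1.59 ± 0.16, SE, limma adjusted p = 0.000288). The Fc receptor genes Fcgr4 (2.27 ± 0.24) and Fcgr2b (0.68 ± 0.12) rose, and the kinase Syk (-0.50 ± 0.10), the lipid phosphatase Inpp5d (-0.44) and the high-affinity receptor Fcgr1 (-0.35) fell. Trem2 was at 10.69 to 10.81 in controls and 10.92 to 11.11 in knockouts, without overlap but not called (0.23, adjusted p = 0.111). Its adaptor Tyrobp (0.07) and the sheddases Adam10 (-0.13) and Adam17 (0.10) were not called, nor was Spi1, which encodes PU.1 (-0.06, adjusted p = 0.834). Fcgr4 had its 2 highest values in knockout 4 (9.34) and knockout 3 (8.91), the arrays that were also highest for Ms4a4c, Ms4a6c and Ms4a6d.

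The genes most like each called member were found by the root mean square difference of log2 values over the 8 arrays, each gene centred on its own mean. Symbols of predicted genes, clones, small RNAs, their host genes, pseudogenes and immune receptor segments were left out of this search. Nearest to Ms4a6b were Zswim6 (0.062), the guanine nucleotide exchange factor Dock10 (0.070) and the TGF-beta co-receptor endoglin, Eng (0.071), all 3 called lower. Nearest to Ms4a7 were Bcas1 (0.122), Ildr2 (0.125) and the retinal reductase Dhrs3 (0.130), all 3 called higher. Nearest to Ms4a4c were the mitotic kinase Bub1 (0.111), the myeloid receptor Tarm1 (0.114) and Csrp1 (0.131), of which Tarm1 was called higher. For scale, the members' own root mean square departures from their means were 0.38 for Ms4a6b, 0.39 for Ms4a7 and 0.55 for Ms4a4c. The groups share all 8 arrays in these distances, so the difference between groups enters each of them.

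**Figure D4:**
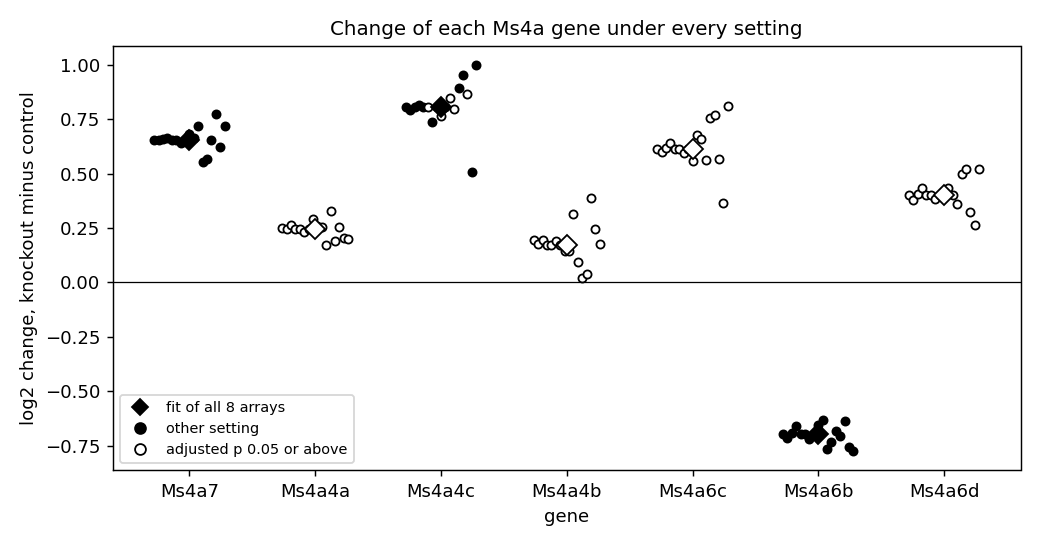
Log2 change, knockout minus control, of each Ms4a gene (vertical axis) in the fit of all 8 arrays (diamonds) and under the other settings (circles); filled symbols have a limma adjusted p under 0.05. Ms4a6b stays between -0.77 and -0.63 and Ms4a7 between 0.55 and 0.77, Ms4a4c ranges from 0.51 to 1.00 with both filled and open symbols, and the remaining 4 genes have open symbols throughout.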

How the data were processed

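Total RNA of sorted cells (5.775 ng a sample, integrity number 8 or higher) was amplified, turned into sense cDNA and put on 1 Affymetrix gene array a sample, per the labels' protocols. The deposited values are log2 expression per probe set, for which the submitters' processing notes name RMA. Its software, version and chip files were not given in the sources used here, and log2 was read from the range, 2.04 to 13.99. RMA hides any change common to the whole array and compresses changes of dim genes.

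Of 28874 probe sets, 21789 had 1 symbol in the platform annotation, 1621 several and 5464 none. Of 19938 genes, 19856 matched RefSeq (GRCm38.p6) by gene number, which gave the gene order. Groups follow the labels' genotype. limma 3.58.1 in R 4.3.3 (lmFit, eBayes, two-sided, no covariate, no filter) compared knockout with control at a Benjamini-Hochberg adjusted p of 0.05, and was tested on simulated data. Means are ± SD and changes ± SE; 95% intervals are unadjusted. A list's summed level is the log2 of its summed linear values. Named were the members, other family genes, Hsd17b4, up to 4 called genes a list (else 2 by lowest p), called genes beside the cluster and 3 like genes for each called member. F13a1, Inpp5d, Fcgr1, Cx3cr1, Cd2, Nkg7, Skap1, Klrb1c, Dab2, Folr2, Plac8, S100a4, Vcan, Trem2, Tyrobp, Adam10, Adam17, Spi1, Xist, Eif2s3y, Stx3 and AW112010 were named after their values were seen. Members and lists were chosen with earlier results of these data known. Alternatives tried were leaving out dim genes, 3 scalings, the mean of probe sets, a robust trended prior, array weights, a replicate block, arrays left out and a threshold of 0.01. Windows were aligned locally with Biopython 1.88.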

Additional observations from a re-analysis of the deposited data

Results flagged for a closer look

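Of 112 groups of 4 arrays checked over 56 genes, 1 had an array set far apart from the others: Csrp1, the LIM-domain gene whose pattern was among those closest to Ms4a4c, stood at 8.23 in knockout 4 against 7.16 for the next highest knockout array. The gap was 0.832 of the group's range, above Dixon's critical value for 4 samples. Chance sets about 1 in 20 groups apart in this way, and none of the 7 Ms4a genes had such an array by this measure.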

How the results depend on the processing

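Under the 17 or 18 alternatives run for each of the 7 Ms4a genes, 0 changes reversed, and 8 values of called genes lost the call (Ms4a4c 7 times, Ms4a7 at the 0.01 threshold). Not all alternatives could reverse a change. Leaving out dim genes, the mean of probe sets, the robust trended prior, the replicate block and the stricter threshold leave a member's fitted change as it is. The count of members called higher (2) became 1 with the intensity trend and robust prior and 0 at a threshold of 0.01, and was 1 to 2 when arrays were left out in turn. Leaving out 1 array gave 1 to 3 higher genes next to the cluster, 0 to 1 higher and 2 to 6 lower border macrophage genes, 0 to 1 higher and 1 to 2 lower monocyte genes, 0 to 2 higher and 0 to 1 lower T and NK cell genes, 0 to 1 higher B-cell genes and 0 to 3 lower neutrophil genes. The 3 lower neutrophil genes appeared without control 1, the array with the lowest neutrophil levels. Without control 3 and knockout 2 together, 3 T and NK cell genes were higher. At a threshold of 0.01 there was 1 higher gene next to the cluster, 0 higher and 2 lower border macrophage genes and 1 lower signalling gene. Without dim genes 0 border macrophage genes were higher, since Colec12 was left out by that filter, and 20.4% of the remaining genes were called. The causes of the other changes were not tested. The labels number the replicates alike in both groups, and with the replicate number as a block 1 monocyte gene was higher; the deviations of same-numbered arrays correlated at 0.158, -0.065, 0.006 and 0.008, so the numbers were not taken to pair the samples, and the block changed no call among the members. Small changes of other family genes reversed in sign: Ms4a20 was at 0.00010 after cyclic loess, 0.0075 with array weights, 0.014 without control 3 and knockout 2 and -0.062 to 0.036 with arrays left out. Without control 3 and knockout 2, Ms4a19 was at 0.0027 and Ms4a3 at 0.035. With arrays left out in turn, Ms4a1 ran from -0.10 to 0.17, Ms4a13 from -0.0061 to 0.081, Ms4a19 from -0.094 to 0.043, Ms4a2 from -0.065 to 0.0052 and Ms4a8a from -0.068 to 0.0066.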
